A study of Homo sapiens with 18 samples.

Results

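The interleukin-6 family of cytokines and its STAT3 route were followed through 6 groups of RNA-seq libraries of PC9, a human non-small-cell lung cancer line that depends on the receptor kinase EGFR. The members are 10 genes chosen by name: the cytokines IL6, IL11, LIF and CLCF1, the receptor genes IL6R, IL6ST, OSMR and LIFR, the transcription factor STAT3 and its feedback inhibitor SOCS3. They are 10 of the 30727 genes in the table, and all 10 passed the expression filter that left 17641 genes for testing.

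There were 18 libraries, 3 per group, called a, b and c here, and all cells grew in RPMI-1640 with 10% serum. DTP_TSA are drug-tolerant persister cells given 50 nM trichostatin A (TSA, a histone deacetylase inhibitor) for 5 hours without a change of medium. DTP are the persister cells themselves, those alive after 8 days in 1 µM erlotinib, an EGFR inhibitor. The treatment text of these samples also describes cells sorted by ALDH activity, which no title names, and the DTP libraries are read here as unsorted cells. The group erlotinib_24h had 1 µM erlotinib for 24 hours, and carboplatin_72h had 50 µM of the DNA-crosslinking drug carboplatin for 72 hours. Parental_TSA are parental cells given 50 nM TSA for 5 hours, and parental_DMSO are parental cells given the solvent. Nothing in the labels says that the replicates came from separate cultures, and p-values then cover only the spread among these samples, which may be technical.

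Cytokines of this family signal through gp130, the shared receptor chain that IL6ST encodes. A cytokine first meets its own receptor chain, such as IL6R for interleukin-6 or LIFR for LIF, and the complex with gp130 activates JAK kinases that phosphorylate STAT3. STAT3 then enters the nucleus and switches on target genes, among them SOCS3, whose protein binds gp130 and shuts the signal down. In lung cancer cells this pathway is known for its part in inflammation and in survival under drug treatment.

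Upstream sequences are shown for IL6 and IL11, the 2 cytokine genes whose levels rose most after carboplatin, and for LIFR, the member that rose after TSA in both cell states. Each is the 250 bases before a RefSeq start on GRCh38.p14, and RefSeq windows were found for 8 of the 10 members, 11 windows in all. Both strands were searched for the STAT motif TTCNNNGAA, the AP-1 motif TGANTCA, the cAMP response element TGACGTCA and the NF-kB consensus. Capitals mark the match in each window, on the strand of the gene. IL6 lies at chr7:22727200-22731998, IL11 at chr19:55364382-55370463 and LIFR at chr5:38474668-38608403.
IL6, chr7:22726950-22727199, plus strand: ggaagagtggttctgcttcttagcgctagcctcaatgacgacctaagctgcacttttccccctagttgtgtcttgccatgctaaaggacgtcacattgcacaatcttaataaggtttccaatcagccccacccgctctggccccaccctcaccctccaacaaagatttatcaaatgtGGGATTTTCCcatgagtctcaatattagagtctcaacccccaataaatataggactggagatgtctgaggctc
IL11, chr19:55370464-55370713, minus strand: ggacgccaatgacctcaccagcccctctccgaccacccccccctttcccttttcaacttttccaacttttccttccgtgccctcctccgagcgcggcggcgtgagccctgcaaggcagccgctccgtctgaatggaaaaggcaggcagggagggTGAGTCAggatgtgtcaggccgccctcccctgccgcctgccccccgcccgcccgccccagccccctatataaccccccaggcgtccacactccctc
LIFR, chr5:38557468-38557717, minus strand: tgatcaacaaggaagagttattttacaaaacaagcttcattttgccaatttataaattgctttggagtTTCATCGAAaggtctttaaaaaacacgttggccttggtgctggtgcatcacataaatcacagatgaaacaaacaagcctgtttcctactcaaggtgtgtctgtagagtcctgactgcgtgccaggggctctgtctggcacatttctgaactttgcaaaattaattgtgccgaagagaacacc
The IL6 window holds an NF-kB match that begins 73 bases before the start, and 9.96% of the 35116 RefSeq windows of this length hold such a match. The IL11 window holds an AP-1 match 96 bases before the start, a motif found in 6.57% of windows. The LIFR window shown holds a STAT match 182 bases before its start, a motif found in 6.57% of windows, and another of the LIFR windows holds one 165 bases before its start. The remaining LIFR window, chr5:38556647-38556896, held no match to any of the motifs, so the STAT match is not shared by every LIFR start. IL6ST had an NF-kB match 53 bases before its start. No match to these letters was found in the windows of IL6R, OSMR, SOCS3 and STAT3, and no member window held TGACGTCA, found in 1.65% of windows. A match is a run of letters only, and factor binding was not measured.

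Gene reads per library ran from 32139343 in DTP_TSA a to 128293531 in parental_TSA c. DTP_TSA a stood apart, with 99.9 reads of the added ERCC spike-in RNA per 100 gene reads, against 0.321 to 0.786 in the other 17 libraries. Its best Pearson correlation with a library of its group, over genes, was 0.977, and that of parental_TSA a was 0.992. The other 16 libraries reached at least 0.9978, the value of parental_TSA b and c. TSA results of the 10 genes and counts of the other lists are therefore also given without replicate a. The epithelial markers were strong throughout, EPCAM between 308 and 714 CPM and the sum of 7 markers between 3990 and 8469 CPM, but the lung lineage factor NKX2-1 reached at most 1.93 CPM and was at 0 in some libraries. Some markers of other cells were at or near 0, with PTPRC at most 0.0986 CPM, COL1A2 at most 0.0413 CPM and TEK at most 0.172 CPM. Others were not: PECAM1 reached 71.6 CPM and CDH5 44.3 CPM in erlotinib_24h, and CD68 70.0 CPM in carboplatin_72h. In DTP_TSA COL1A1 reached 32.2 CPM and KDR 12.0 CPM. The summed markers of other cells did move with treatment: the 6 leukocyte markers came to 70.6 to 74.4 CPM in carboplatin_72h, the 5 endothelial markers to 113 to 118 CPM in erlotinib_24h and the 7 fibroblast markers to 24.3 to 28.3 CPM in DTP, against 30.3 to 33.1, 17.5 to 18.4 and 4.70 to 4.75 CPM in parental_DMSO. The fibroblast sum was highest in DTP_TSA, at 29.4 to 32.2 CPM. It came to 19.2 to 20.6 CPM in erlotinib_24h, 18.6 to 26.4 CPM in carboplatin_72h and 13.2 to 15.2 CPM in parental_TSA. CD68, PECAM1 with CDH5, and COL1A1 made up most of these sums, and their part in the results was not tested.

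Levels are read counts scaled to the gene reads of each library (CPM), with TMM-scaled library sizes. Folds are fitted by the edgeR model. The range of a gene in 1 group is called apart from that in another where no library of one reaches those of the other.

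IL6 encodes interleukin-6, the founding member of the family. It had 6.90, 12.4 and 11.8 CPM in DTP_TSA, 43.0, 40.3 and 44.1 CPM in DTP, and 18.7, 18.4 and 17.4 CPM in erlotinib_24h. It had 73.5, 73.3 and 70.8 CPM in carboplatin_72h, 10.9, 10.2 and 8.29 CPM in parental_TSA, and 11.0, 10.7 and 10.8 CPM in parental_DMSO. Carboplatin_72h stood highest, then DTP, then erlotinib_24h, each apart from the next, while the other groups overlapped one another. The fitted level was 6.71 times that of parental_DMSO after carboplatin, 3.93 times in DTP and 1.68 times after 24 hours of erlotinib. In TSA-treated persister cells it came to 0.247 times the DTP level, and the DTP_TSA libraries lie on both sides of the parental_DMSO range.

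IL11 encodes interleukin-11, a gp130 cytokine with its own receptor chain, IL11RA. It had 10.8, 9.68 and 9.38 CPM in DTP_TSA, 8.28, 9.31 and 8.29 CPM in DTP, and 0.629, 1.02 and 0.871 CPM in erlotinib_24h. It had 241, 223 and 251 CPM in carboplatin_72h, 8.35, 7.70 and 6.98 CPM in parental_TSA, and 21.3, 19.7 and 18.7 CPM in parental_DMSO. The groups spanned the widest range of any member, with the highest group mean 283 times the lowest. After carboplatin IL11 was at 12.0 times the parental_DMSO level, and after 24 hours of erlotinib at 0.0425 times. DTP stood between erlotinib_24h and parental_DMSO, apart from both, and overlapped parental_TSA.

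LIF encodes leukemia inhibitory factor, which signals through LIFR and gp130. It had 18.3, 16.6 and 15.4 CPM in DTP_TSA, 79.0, 77.6 and 77.2 CPM in DTP, and 31.7, 31.6 and 32.0 CPM in erlotinib_24h. It had 143, 129 and 148 CPM in carboplatin_72h, 36.5, 41.4 and 46.4 CPM in parental_TSA, and 141, 142 and 139.9 CPM in parental_DMSO. Carboplatin_72h and parental_DMSO overlapped at the top, and every other group lay below them and apart from its neighbours in the order. Fitted levels against parental_DMSO were 0.552 times in DTP and 0.225 times after 24 hours of erlotinib.

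CLCF1 encodes cardiotrophin-like cytokine factor 1, which binds the CNTF receptor. It had 0.0265, 0.733 and 0.797 CPM in DTP_TSA, 16.3, 15.4 and 15.7 CPM in DTP, and 11.5, 12.1 and 12.8 CPM in erlotinib_24h. It had 39.3, 36.1 and 42.5 CPM in carboplatin_72h, 4.93, 3.23 and 3.18 CPM in parental_TSA, and 25.2, 22.9 and 24.5 CPM in parental_DMSO. No neighbouring groups overlapped in the order of levels, with carboplatin_72h highest and DTP_TSA lowest. The lowest value, in DTP_TSA a, rests on 1 read, against 68 and 74 reads in DTP_TSA b and c. CLCF1 overlaps the non-coding gene LOC100130987, which had 26 to 283 reads per library, and whether counting used strand is not given in the sources used here.

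IL6R encodes the interleukin-6 binding chain. It had 1.19, 1.74 and 2.18 CPM in DTP_TSA, 1.08, 0.969 and 0.777 CPM in DTP, and 0.838, 0.711 and 0.807 CPM in erlotinib_24h. It had 31.6, 32.7 and 33.3 CPM in carboplatin_72h, 2.47, 3.67 and 4.41 CPM in parental_TSA, and 8.63, 9.12 and 9.25 CPM in parental_DMSO. Carboplatin_72h was highest and apart from parental_DMSO, while DTP and erlotinib_24h overlapped at the bottom. IL6R thus fell in DTP, to 0.105 times the parental_DMSO level, in the same cells in which its ligand IL6 rose, and after carboplatin ligand and receptor both rose.

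IL6ST encodes gp130, the signalling chain that all these cytokines share. It had 392, 375 and 389.7 CPM in DTP_TSA, 514, 521 and 518 CPM in DTP, and 301, 303 and 314 CPM in erlotinib_24h. It had 533, 552 and 515 CPM in carboplatin_72h, 198, 281 and 326 CPM in parental_TSA, and 572, 620.1 and 575 CPM in parental_DMSO. Parental_DMSO stood highest, and the ranges of carboplatin_72h and DTP overlapped, as did those of erlotinib_24h and parental_TSA. Group means kept within 268 to 589 CPM.

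OSMR encodes the oncostatin M receptor chain, which pairs with gp130. It had 154, 176 and 172 CPM in DTP_TSA, 199.8, 196 and 192 CPM in DTP, and 272, 270.1 and 266 CPM in erlotinib_24h. It had 227, 231 and 218 CPM in carboplatin_72h, 111, 135 and 151 CPM in parental_TSA, and 213, 223 and 223 CPM in parental_DMSO. Erlotinib_24h was highest and parental_TSA lowest, and carboplatin_72h overlapped parental_DMSO. OSMR overlaps RICTOR in the annotation, a protein-coding gene with 2095 to 8661 reads per library, so some reads could belong to either gene.

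LIFR encodes the LIF receptor chain. It had 145, 152 and 161 CPM in DTP_TSA, 32.0, 30.7 and 32.5 CPM in DTP, and 28.6, 28.8 and 30.6 CPM in erlotinib_24h. It had 36.0, 39.3 and 35.2 CPM in carboplatin_72h, 36.5, 60.7 and 75.0 CPM in parental_TSA, and 26.2, 28.8 and 27.4 CPM in parental_DMSO. DTP_TSA stood far above every other group, at 4.81 times the DTP level. The parental_TSA libraries spread widely, and replicate a of that group lay within the range of carboplatin_72h.

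STAT3, the transcription factor at the end of the route, had 204, 236 and 229 CPM in DTP_TSA, 213, 211 and 209 CPM in DTP, and 373, 375 and 366 CPM in erlotinib_24h. It had 156, 151 and 152 CPM in carboplatin_72h, 102, 132 and 145 CPM in parental_TSA, and 131, 134 and 131 CPM in parental_DMSO. Erlotinib_24h was highest, at 2.81 times the parental_DMSO level, followed by the overlapping pair DTP_TSA and DTP. These are RNA levels, and phosphorylation of STAT3 protein was not measured.

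SOCS3, the inhibitor that STAT3 induces, had 11.5, 12.3 and 12.8 CPM in DTP_TSA, 7.72, 7.30 and 7.77 CPM in DTP, and 20.7, 21.0 and 20.1 CPM in erlotinib_24h. It had 19.4, 17.6 and 21.4 CPM in carboplatin_72h, 26.8, 25.5 and 23.9 CPM in parental_TSA, and 23.3, 23.0 and 22.1 CPM in parental_DMSO. The persister groups were the lowest, DTP below DTP_TSA, and erlotinib_24h overlapped carboplatin_72h. In DTP the level was 0.333 times that of parental_DMSO, while STAT3 was at 1.60 times.

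Per kilobase of exon, the scale on which genes can be compared, parental_DMSO cells held most of the gp130 gene. IL6ST came to 64.9 CPM per kilobase, OSMR to 35.7, LIF to 35.5, STAT3 to 26.2 and CLCF1 to 12.3 CPM per kilobase. IL11 followed at 8.39, SOCS3 at 8.33, IL6 at 6.30, LIFR at 2.64 and IL6R at 1.49 CPM per kilobase. In carboplatin_72h IL11 reached 100.4 CPM per kilobase, above IL6ST at 58.7 CPM per kilobase.

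**Figure D1:**
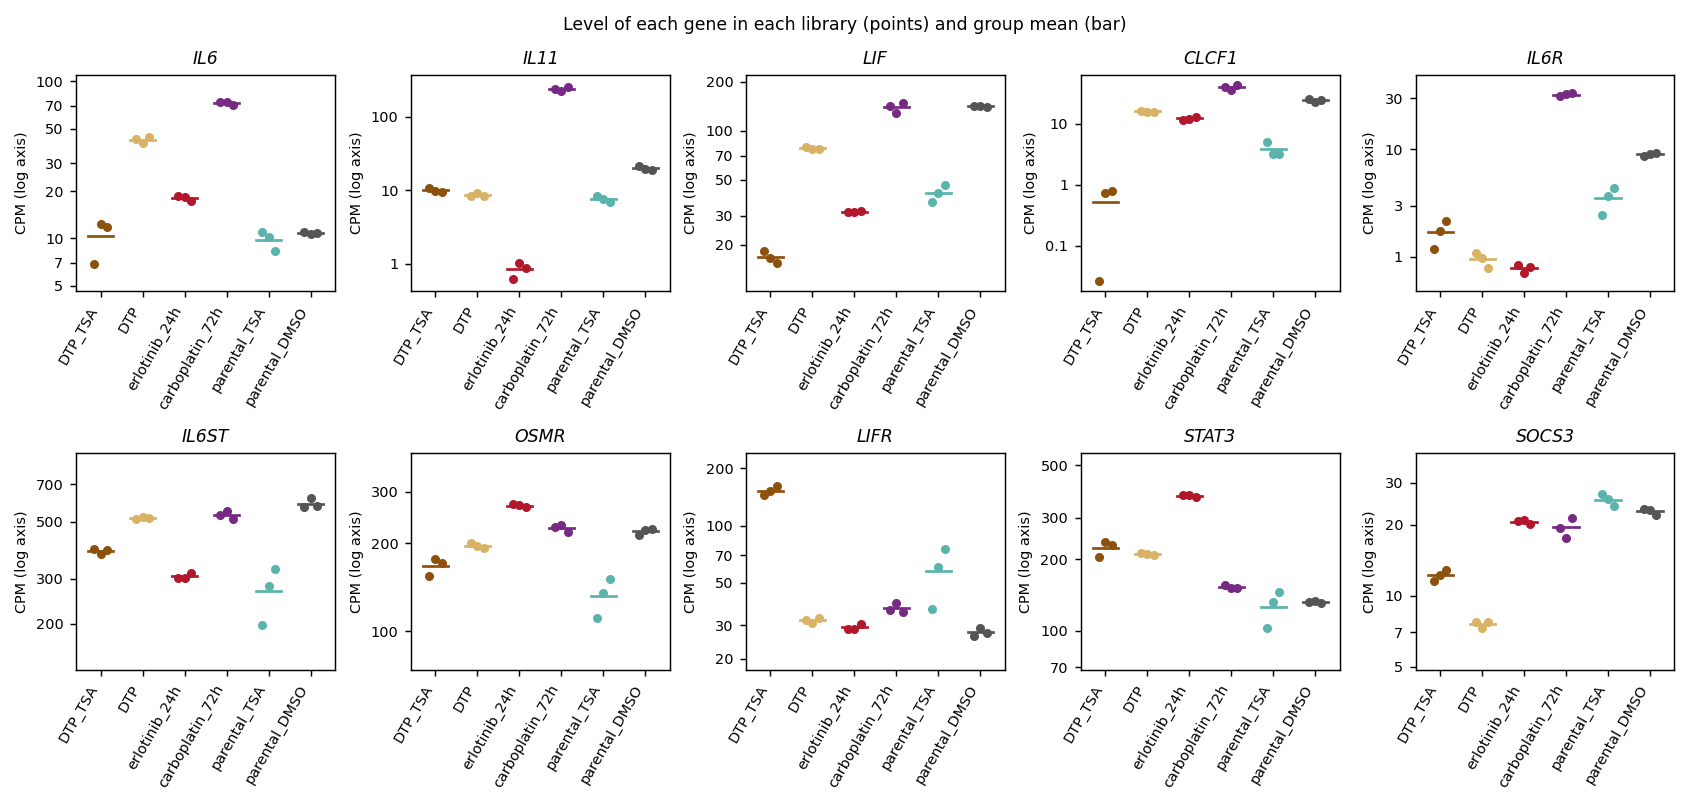
Level of each of the 10 genes in CPM on a log axis, with a point per library, a bar at the mean of each group of 3, and the groups in the order DTP_TSA, DTP, erlotinib_24h, carboplatin_72h, parental_TSA and parental_DMSO. IL6 and IL11 peak in carboplatin_72h, STAT3 in erlotinib_24h and LIFR in DTP_TSA, where CLCF1 is lowest.

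The changes that follow are on the log2 scale, each with ± 1 standard error, as fitted by the quasi-likelihood test of edgeR on 3 libraries per group, with Benjamini-Hochberg adjusted p-values over all genes tested and a threshold of 0.05. The same parental_DMSO libraries serve 5 of the 7 comparisons, and the DTP libraries serve 4, so these comparisons are not independent. In bulk RNA, fewer cells of a type and less RNA per cell cannot be told apart. Scaling to the spike-in RNA, without DTP_TSA a, shifted the median change of all genes to -0.23 in erlotinib_24h and 0.72 in carboplatin_72h against parental_DMSO, to 0.48 in DTP against erlotinib_24h, to 0.11 in DTP_TSA against DTP and to 0.05 for the difference in TSA effects. Against parental_DMSO that median was 0.16 in DTP and 0.07 in parental_TSA.

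Persister cells held more IL6 and STAT3 RNA than parental cells, and less IL6R, SOCS3, IL11, LIF and CLCF1. Of the 10 members 7 changed in DTP against parental_DMSO, 2 higher and 5 lower. Among all genes 58.9% changed, 31.0% higher and 27.8% lower, so a share of this size is near that of the transcriptome. In spike-in scaling 2 members were higher and 5 lower, and over all genes 5631 were higher and 3224 lower, against 5471 and 4911 in the main scaling. The median of the members was -0.40, against 0.06 over all genes. IL6 was higher by 1.97 ± 0.15 (adjusted p = 5.94e-09) and STAT3 by 0.68 ± 0.09 (adjusted p = 4.37e-06). IL6R fell by 3.25 ± 0.21 (adjusted p = 6.69e-10), SOCS3 fell by 1.58 ± 0.08 (adjusted p = 2.92e-11), IL11 fell by 1.21 ± 0.11 (adjusted p = 3.41e-08) and LIF fell by 0.86 ± 0.08 (adjusted p = 4.80e-08). The CLCF1 change of -0.61 ± 0.25 passed narrowly (adjusted p = 0.0469), and the call was lost in 13 of 18 fits that each left out 1 library. IL6ST at -0.19 (95% interval -0.43 to 0.05), OSMR at -0.16 (-0.34 to 0.01) and LIFR at 0.21 (-0.13 to 0.55) did not pass, but all 3 passed in the fit without parental_TSA a, with adjusted p-values of 0.00396, 0.00832 and 0.0178.

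After 24 hours of erlotinib the cytokine genes other than IL6 fell and STAT3 rose most among the members. Of the 10 members 8 changed in erlotinib_24h against parental_DMSO, 3 higher and 5 lower, where 69.3% of all genes changed, 36.6% higher and 32.7% lower. In spike-in scaling 2 members were higher and 6 lower, and over all genes 4665 were higher and 7207 lower, against 6457 and 5776 in the main scaling. Members had a median of -0.54, against 0.11 over all genes. IL11 fell by 4.56 ± 0.13 (adjusted p = 9.90e-15), IL6R fell by 3.52 ± 0.21 (adjusted p = 1.43e-10) and LIF fell by 2.15 ± 0.08 (adjusted p = 2.22e-13). CLCF1 fell by 0.99 ± 0.26 (adjusted p = 0.00236) and IL6ST fell by 0.94 ± 0.11 (adjusted p = 1.19e-06). STAT3 was higher by 1.49 ± 0.09 (adjusted p = 1.35e-10) and IL6 by 0.75 ± 0.15 (adjusted p = 2.44e-04). OSMR was higher by 0.29 ± 0.08 (adjusted p = 0.00385), a direction that turned to -0.07 (adjusted p = 0.789) when libraries were scaled to the spike-in RNA. LIFR differed by 0.09 (95% interval -0.25 to 0.44), a value that turned to -0.27 (adjusted p = 0.415) in that scaling, and SOCS3 by -0.15 (-0.31 to 0.02); neither passed, but SOCS3 passed in spike-in scaling, at -0.51 (adjusted p = 0.00428).

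After 72 hours of carboplatin IL11, IL6 and IL6R rose most among the members. Of the 10 members 7 changed in carboplatin_72h against parental_DMSO, 6 higher and 1 lower, where 58.9% of all genes changed, 30.3% higher and 28.6% lower. In spike-in scaling 9 members passed, each of them higher, and so did most called genes, 10618 higher and 1213 lower, against 5340 and 5046 in the main scaling. The median of the members was 0.32, against 0.06 over all genes. IL11 was higher by 3.58 ± 0.11 (adjusted p = 1.42e-13), IL6 by 2.75 ± 0.15 (adjusted p = 1.53e-10) and IL6R by 1.85 ± 0.18 (adjusted p = 1.88e-07). The other calls were small: CLCF1 at 0.70 ± 0.25 (adjusted p = 0.0247), LIFR at 0.43 ± 0.16 (adjusted p = 0.0328), STAT3 at 0.21 ± 0.09 (adjusted p = 0.0495) and SOCS3 at -0.23 ± 0.08 (adjusted p = 0.0181), and the SOCS3 value turned to 0.41 (adjusted p = 0.0172) in spike-in scaling. Without any 1 of the 3 parental_DMSO or 3 carboplatin_72h libraries the count of members that changed was 4. LIF at -0.01 (95% interval -0.17 to 0.15), IL6ST at -0.14 (-0.38 to 0.10) and OSMR at 0.04 (-0.13 to 0.21) did not pass, and in spike-in scaling they stood at 0.63 (adjusted p = 0.00731), 0.51 (adjusted p = 0.0685) and 0.69 (adjusted p = 0.00776).

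**Figure D2:**
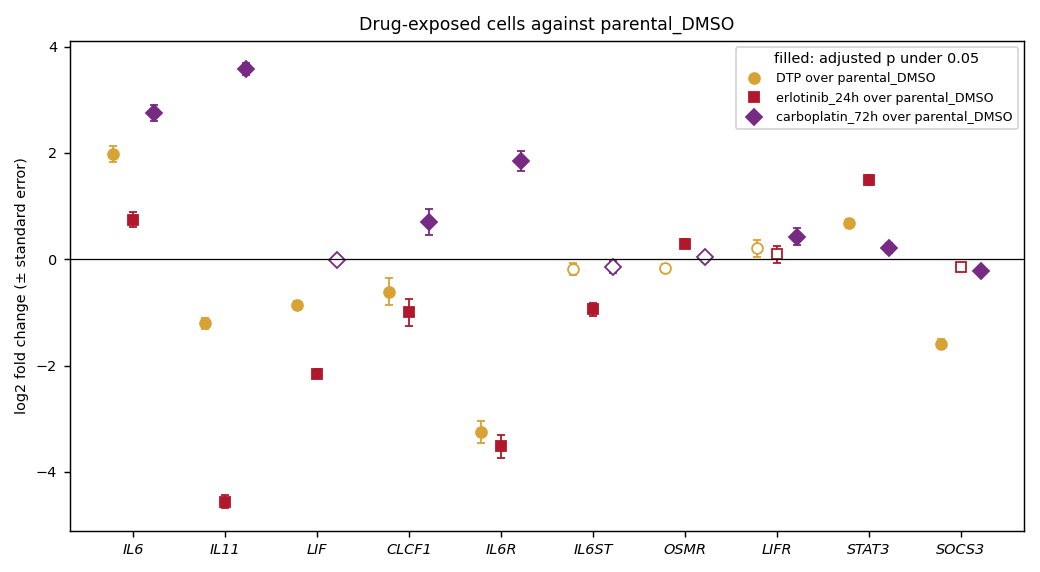
Log2 fold change of each gene against parental_DMSO in DTP, erlotinib_24h and carboplatin_72h, with error bars of 1 standard error from the edgeR fit of 3 libraries per group. IL6 is higher in all 3 drug groups, while IL11 is at 3.58 after carboplatin and at -4.56 after 24 hours of erlotinib.

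Persister cells held more RNA of 3 cytokine genes and of IL6ST than cells early in erlotinib, and less SOCS3, STAT3 and OSMR. Of the 10 members 7 changed in DTP against erlotinib_24h, 4 higher and 3 lower, where 55.3% of all genes changed, 30.5% higher and 24.8% lower. In spike-in scaling 5 members were higher and 1 lower, and over all genes 8502 were higher and 2030 lower, against 5382 and 4377 in the main scaling. The median of the members was 0.32, against 0.03 over all genes. IL11 was higher in DTP by 3.35 ± 0.13 (adjusted p = 1.31e-12), LIF by 1.29 ± 0.08 (adjusted p = 3.43e-10), IL6 by 1.23 ± 0.15 (adjusted p = 1.68e-06) and IL6ST by 0.76 ± 0.11 (adjusted p = 2.44e-05). SOCS3 fell by 1.44 ± 0.08 (adjusted p = 1.12e-10). STAT3 fell by 0.82 ± 0.09 (adjusted p = 5.47e-07) and OSMR fell by 0.46 ± 0.08 (adjusted p = 1.25e-04); spike-in scaling ended both calls, at -0.36 (adjusted p = 0.148) and -0.01 (adjusted p = 0.986). CLCF1 at 0.38 (95% interval -0.16 to 0.92), IL6R at 0.27 (-0.21 to 0.74) and LIFR at 0.12 (-0.23 to 0.46) did not pass; CLCF1 passed without DTP_TSA a (adjusted p = 0.0109) and in spike-in scaling, at 0.83 (adjusted p = 7.26e-06).

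In persister cells 5 hours of TSA lowered IL6, LIF and CLCF1 and raised LIFR. Of the 10 members 8 changed in DTP_TSA against DTP, 3 higher and 5 lower, where 56.2% of all genes changed, 25.6% higher and 30.7% lower. In spike-in scaling 3 members were higher and 3 lower, and over all genes 4446 were higher and 2582 lower, against 4508 and 5407 in the main scaling. The median of the members was -0.07, against -0.08 over all genes. CLCF1 fell by 4.71 ± 0.33 (adjusted p = 3.23e-09), LIF fell by 2.22 ± 0.08 (adjusted p = 1.90e-12) and IL6 fell by 2.02 ± 0.15 (adjusted p = 7.13e-09). LIFR was higher by 2.27 ± 0.17 (adjusted p = 6.37e-09), IL6R by 0.88 ± 0.21 (adjusted p = 0.00194) and SOCS3 by 0.69 ± 0.08 (adjusted p = 1.36e-06). IL6ST fell by 0.42 ± 0.11 (adjusted p = 0.00437), a call that spike-in scaling ended at -0.29 (adjusted p = 0.419). OSMR fell by 0.23 ± 0.08 (adjusted p = 0.0251), a call lost without DTP_TSA a at -0.18 (adjusted p = 0.0901), without DTP a at -0.22 (adjusted p = 0.0635) and in spike-in scaling at -0.03 (adjusted p = 0.941). Without DTP_TSA a the other values were -4.37 for CLCF1, -2.29 for LIF, -1.82 for IL6, 2.29 for LIFR, 1.04 for IL6R, 0.72 for SOCS3 and -0.44 for IL6ST. IL11 at 0.20 (95% interval -0.02 to 0.43) and STAT3 at 0.08 (-0.11 to 0.27) did not pass, and STAT3 passed without replicate a of both TSA groups, a choice made with earlier results of these data known, at 0.13 (adjusted p = 0.00419).

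In parental cells the same TSA dose lowered 3 of the 4 cytokine genes and 3 of the 4 receptor genes, and raised LIFR. Of the 10 members 7 changed in parental_TSA against parental_DMSO, 1 higher and 6 lower, where 58.2% of all genes changed, 30.8% higher and 27.4% lower. Members had a median of -0.93, against 0.06 over all genes. Spike-in reads per 100 gene reads were uneven within parental_TSA, at 0.786 in a, 0.535 in b and 0.502 in c, which limits spike-in scaling here. CLCF1 fell by 2.69 ± 0.27 (adjusted p = 2.85e-07), LIF fell by 1.77 ± 0.08 (adjusted p = 1.54e-11) and IL11 fell by 1.38 ± 0.11 (adjusted p = 9.20e-09). IL6R fell by 1.34 ± 0.19 (adjusted p = 9.64e-06), IL6ST fell by 1.13 ± 0.11 (adjusted p = 2.74e-07) and OSMR fell by 0.73 ± 0.08 (adjusted p = 8.18e-07). LIFR was higher by 1.07 ± 0.16 (adjusted p = 2.75e-05). IL6 at -0.14 (95% interval -0.45 to 0.17), SOCS3 at 0.16 (-0.00495 to 0.32) and STAT3 at -0.06 (-0.25 to 0.12) did not pass. Without parental_TSA a the values were -2.92 for CLCF1, -1.69 for LIF, -1.45 for IL11, -1.16 for IL6R, -0.96 for IL6ST, -0.63 for OSMR, 1.30 for LIFR and 0.11 for SOCS3, with the same 7 calls. Without replicate a of both TSA groups, IL6 stood at -0.22 and passed (adjusted p = 0.0108), and STAT3 turned to 0.07 (adjusted p = 0.118).

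The effect of TSA differed between persister and parental cells for most members. The difference of the effects, that in DTP less that in parental cells, was tested in the same fit, and 9 of 10 members passed, 6 positive and 3 negative, where 38.3% of all genes passed, 15.3% positive and 23.0% negative. In spike-in scaling 6 members passed, without IL6ST, LIF and OSMR, and the count over all genes was 2717, against 6750. Their median was 0.52, against -0.11 over all genes. IL6 fell with TSA in persister cells and stood at -0.14 in parental cells, where it did not pass, a difference of -1.88 ± 0.21 (adjusted p = 3.58e-06). IL11 and IL6R fell in parental cells, with differences of 1.58 ± 0.15 (adjusted p = 6.30e-07) and 2.23 ± 0.28 (adjusted p = 1.36e-05). The LIFR increase was larger in persister cells by 1.20 ± 0.23 (adjusted p = 6.05e-04). STAT3 did not pass, at 0.14 ± 0.12 (adjusted p = 0.394). Without replicate a of both TSA groups the same 9 passed, with CLCF1 at -1.46, IL6 at -1.60, IL11 at 1.58, IL6R at 2.19 and LIFR at 0.99; without DTP_TSA a alone, CLCF1 stood at -1.67 and IL6 at -1.68.

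**Figure D3:**
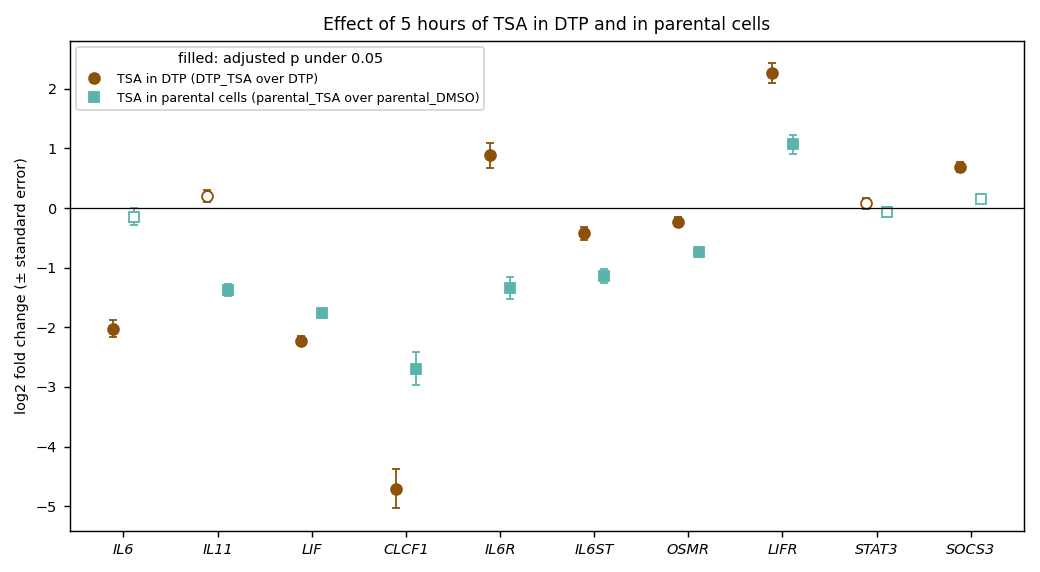
Log2 fold change of each gene with TSA, in DTP_TSA against DTP and in parental_TSA against parental_DMSO, with error bars of 1 standard error from the edgeR fit of 3 libraries per group. LIFR is higher and CLCF1 and LIF lower in both cell states, while IL6 is at -2.02 in persister cells and at -0.14 in parental cells.

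Other ligands of the family were sparse. Of 7 listed, 5 were tested, and in DTP against parental_DMSO EBI3, a subunit shared by interleukin-27 and interleukin-35, was higher by 2.89 ± 0.40 (adjusted p = 7.89e-06). CTF1, which encodes cardiotrophin-1, was higher by 1.61 ± 0.36 in DTP (adjusted p = 0.00103), by 2.65 ± 0.37 in erlotinib_24h (adjusted p = 6.20e-06) and by 1.79 ± 0.36 in carboplatin_72h (adjusted p = 4.41e-04). Against parental_DMSO the list counted 2 higher and 1 lower in DTP, 2 higher in erlotinib_24h, and 4 higher and 1 lower in carboplatin_72h. In parental_TSA it counted 2 higher and 1 lower. Over all genes 58.9%, 69.3%, 58.9% and 58.2% changed in these comparisons. The medians of the list were 1.36, 0.76, 1.84 and 1.02, against 0.06, 0.11, 0.06 and 0.06 over all genes. With TSA in persister cells, where 56.2% of all genes changed, 2 ligands were higher and 2 lower. Without replicate a of both TSA groups 1 was higher and 2 lower there, and 3 were higher and 1 lower in parental cells. OSM, the ligand of OSMR, had 57 reads over the carboplatin_72h libraries and 3 over the parental_DMSO libraries, a ratio of 18.5 scaled to library size (95% exact interval 6.01 to 92.2, counting error only). It was at 0.209 to 0.322 CPM in carboplatin_72h and at most 0.0276 CPM in parental_DMSO. OSM could thus pass the filter through carboplatin_72h, so its call among the 4 higher there was favoured.

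Of 4 other receptor genes 2 were tested. IL11RA, the interleukin-11 receptor, was higher in DTP by 2.22 ± 0.21 (adjusted p = 9.22e-08), in erlotinib_24h by 3.04 ± 0.21 (adjusted p = 9.17e-10), in carboplatin_72h by 1.68 ± 0.21 (adjusted p = 3.06e-06) and in parental_TSA by 1.87 ± 0.21 (adjusted p = 8.94e-07), each against parental_DMSO. Its level stayed low, 3.02 ± 0.329 CPM in erlotinib_24h and 0.366 ± 0.00982 CPM in parental_DMSO (SD, n = 3 each). After 24 hours of erlotinib the IL11 receptor thus rose while IL11 fell. With TSA IL11RA was also higher in persister cells, by 0.89 ± 0.19 (adjusted p = 6.41e-04), and without replicate a of both TSA groups by 0.90 in persister cells and 1.79 in parental cells. IL27RA, the interleukin-27 receptor, was higher in DTP by 1.30 ± 0.10 (adjusted p = 3.48e-09) and lower with TSA, at -0.78 ± 0.09 in persister cells (adjusted p = 2.27e-06) and -1.28 ± 0.10 in parental cells (adjusted p = 7.19e-09), or -0.84 and -1.15 without replicate a of both TSA groups.

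Of the 9 genes that relay the signal or shed its receptors all were tested, and 5 were higher and 1 lower in DTP, 4 higher and 3 lower in erlotinib_24h, and 3 higher and 4 lower in carboplatin_72h. Over all genes 58.9%, 69.3% and 58.9% changed in these comparisons, and counts of this size among 9 genes are not read as a result about the list. The medians of the list were 0.30, 0.12 and -0.15. In spike-in scaling the carboplatin_72h count turned to 5 higher, with the rest not passing, and its median to 0.51, and the erlotinib_24h median turned to -0.25. STAT5A was higher by 3.19 ± 0.29 in DTP (adjusted p = 5.52e-08) and by 3.90 ± 0.29 in erlotinib_24h (adjusted p = 2.63e-09), and the kinase JAK1 by 0.75 ± 0.08 (adjusted p = 3.96e-07) and 0.85 ± 0.08 (adjusted p = 5.34e-08). The STAT5A level stayed low, at 0.347 ± 0.0782 CPM in parental_DMSO, 3.18 ± 0.177 CPM in DTP and 5.20 ± 0.281 CPM in erlotinib_24h (SD, n = 3 each). PTPN11, which encodes the phosphatase SHP2 that docks on gp130, fell by 0.93 ± 0.12 in DTP (adjusted p = 3.73e-06) and fell by 1.26 ± 0.12 in erlotinib_24h (adjusted p = 5.98e-08). With TSA 2 were higher and 3 lower in persister cells, where 56.2% of all genes changed, and 1 higher and 2 lower in parental cells, where 58.2% changed, with medians of -0.04 and -0.08. Without replicate a of both TSA groups these counts were 3 higher and 5 lower in persister cells and 2 higher and 2 lower in parental cells. Scaled to the spike-in RNA, they were 1 higher and 0 lower in persister cells and 0 higher and 1 lower in parental cells.

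Of 7 other brakes on JAK and STAT 6 were tested. They counted 3 higher and 1 lower in DTP, 1 higher and 3 lower in erlotinib_24h, and 2 higher and 2 lower in carboplatin_72h. Their medians were 0.22, -0.55 and 0.30. Over all genes 58.9%, 69.3% and 58.9% changed in these comparisons. Counts of this size among 6 genes are not read as a result about the list. In spike-in scaling the counts were 3 higher and 1 lower, 1 higher and 5 lower, and 4 higher and 1 lower. PIAS3, which binds STAT3 and inhibits it, was higher by 1.03 ± 0.06 in DTP (adjusted p = 3.89e-10) and by 1.03 ± 0.06 in erlotinib_24h (adjusted p = 1.91e-10), or by 1.12 and 0.67 in spike-in scaling. SOCS2, a relative of SOCS3, was lower in erlotinib_24h, at -1.61 ± 0.15 (adjusted p = 4.51e-08), and higher in DTP against erlotinib_24h by 2.07 ± 0.15 (adjusted p = 4.19e-09). With TSA 2 of the brakes were higher and 4 lower in persister cells, with a median of -0.80, where 56.2% of all genes changed. In parental cells 3 were higher and 2 lower, with a median of -0.05, where 58.2% of all genes changed. PTPN1, a JAK phosphatase, was higher in both, by 1.05 ± 0.05 (adjusted p = 3.98e-11) in persister cells and 0.58 ± 0.05 (adjusted p = 3.53e-08) in parental cells. Without replicate a of both TSA groups the counts were 2 higher and 4 lower in persister cells, and 3 higher and 3 lower in parental cells.

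Known STAT3 target genes were counted next, although many of them also answer to NF-kB. Of 24 listed 17 were tested. Against parental_DMSO 8 were higher and 5 lower in DTP, 14 higher and 3 lower in erlotinib_24h, and 11 higher and 1 lower in carboplatin_72h. Over all genes 58.9%, 69.3% and 58.9% changed in these comparisons, 31.0%, 36.6% and 30.3% higher and 27.8%, 32.7% and 28.6% lower. The medians of the list were 0.90, 2.18 and 2.02, against 0.06, 0.11 and 0.06 over all genes. NNMT had no reads in parental_DMSO, and with its fold set at a bound from 3 reads over that group the medians were 0.90, 2.18 and 1.18. In spike-in scaling the counts were 9 higher and 4 lower, 13 higher and 3 lower, and 15 higher with the rest not passing. ICAM1, an adhesion molecule, was higher by 3.33 ± 0.06 in DTP (adjusted p = 1.04e-16), by 3.22 ± 0.06 in erlotinib_24h (adjusted p = 7.58e-17) and by 2.08 ± 0.06 in carboplatin_72h (adjusted p = 5.50e-14). BCL6, a transcriptional repressor, was higher by 3.71 ± 0.08 in erlotinib_24h (adjusted p = 3.02e-16) and by 2.04 ± 0.08 in carboplatin_72h (adjusted p = 1.02e-12), and the kinase gene PIM1 by 1.98 ± 0.10 (adjusted p = 8.63e-12) and 2.10 ± 0.10 (adjusted p = 1.46e-11). The acute-phase genes SAA1 and SAA2 were higher in DTP by 2.63 ± 0.11 (adjusted p = 4.83e-12) and 3.00 ± 0.17 (adjusted p = 1.53e-10), but they are near-identical copies whose reads may be shared. IL4R, the interleukin-4 receptor, was lower in DTP, at 0.499 times the parental_DMSO level (adjusted p = 5.41e-10).

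Against erlotinib_24h 11 of the 17 tested target genes were lower in DTP and 4 higher, or 9 lower and 5 higher in spike-in scaling. Over all genes 55.3% changed in this comparison, 24.8% lower and 30.5% higher. The median of the target genes was -1.06, against 0.03 over all genes. BCL6 was lower by the largest step among those with ample reads, at -2.81 ± 0.08 (adjusted p = 1.70e-14), with 37.0 ± 1.16 CPM in DTP and 261 ± 3.40 CPM in erlotinib_24h (SD, n = 3 each). PIM1 was lower at -1.78 ± 0.10 (adjusted p = 8.17e-11) and TNFRSF1A, a TNF receptor, at -1.06 ± 0.08 (adjusted p = 1.30e-08). SERPINA3, a protease inhibitor of the acute phase, had 2 reads over the DTP libraries and 913 over the erlotinib_24h libraries, a scaled ratio of 0.00226 (95% exact interval 2.73e-04 to 0.00819, counting error only). SERPINA3 is among the 11 lower and NNMT among the 4 higher, and both could pass the filter through their high group. With TSA 2 target genes were higher and 7 lower in persister cells, with a median of -0.29. In parental cells 7 were higher and 3 lower, with a median of 0.47, or 0.31 without NNMT. All-gene shares were 25.6% higher and 30.7% lower in persister cells, and 30.8% higher and 27.4% lower in parental cells. In spike-in scaling the persister count of target genes was 2 higher and 2 lower. With replicate a of both TSA groups left out, 3 were higher and 10 lower in persister cells, and 6 higher and 5 lower in parental cells. BCL3, which binds NF-kB subunits, was lower in persister cells, at -1.21 ± 0.17 (adjusted p = 9.96e-06), and higher in parental cells by 1.38 ± 0.17 (adjusted p = 2.57e-06), and the difference of -2.59 ± 0.24 passed (adjusted p = 4.53e-07). ICAM1 was higher in parental_TSA by 2.59 ± 0.06 (adjusted p = 1.44e-14), and its TSA effects differed by -2.47 ± 0.08 (adjusted p = 3.95e-12). Without replicate a of both TSA groups these differences were -2.45 for BCL3 and -2.47 for ICAM1.

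**Figure D4:**
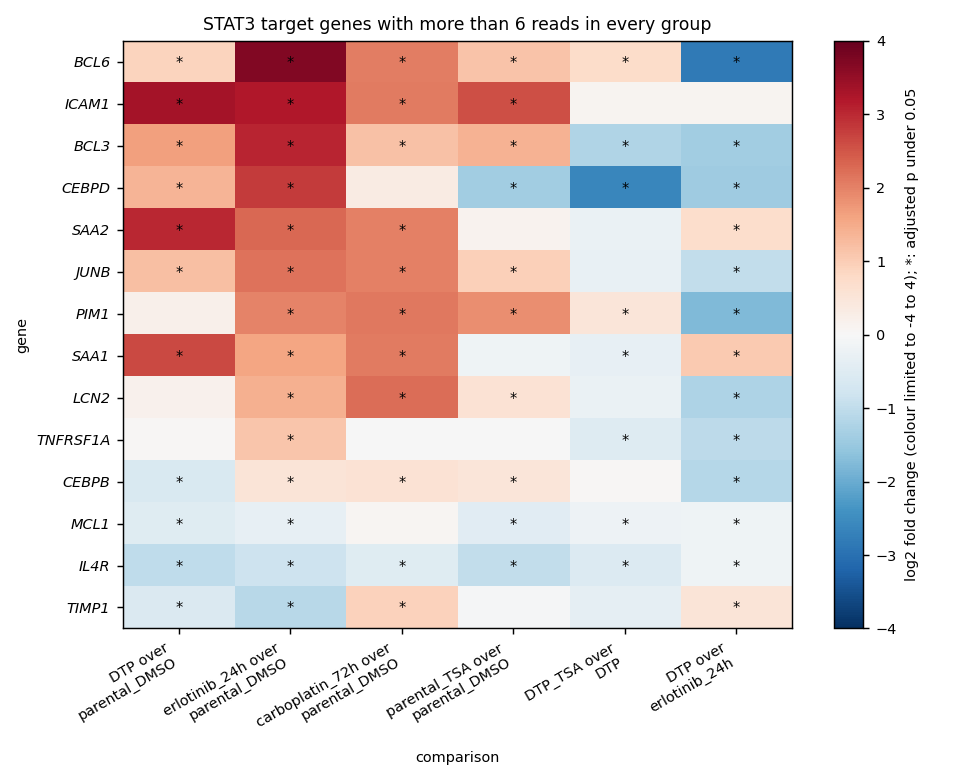
Log2 fold change of the 14 tested STAT3 target genes with more than 6 reads in every group, by comparison, with the first-named group over the second; red is higher, blue is lower, and a star marks an adjusted p under 0.05. BCL6 and ICAM1 are among the genes most raised in erlotinib_24h, and most of the genes are blue in DTP over erlotinib_24h.

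The genes with the most similar patterns over the 6 group means were found by Pearson correlation of log2 CPM among 9096 genes, as a description over points that share libraries. IL6 was most like GMIP (r = 0.985), MARCHF10 (0.965) and CCDC9 (0.946), and IL11 most like ZNF92 (0.995), DOHH (0.994) and SLC66A1 (0.987). LIF was most like KAT2A (0.994), PIGW (0.994) and CDC42SE1 (0.993), and CLCF1 most like AKAP10 (0.998), MSL1 (0.995) and STRN3 (0.994). Among receptors, IL6R was most like DCAF16 (0.988), CPNE5 (0.984) and IL37 (0.978), IL6ST most like FAM83G (0.997), ZBTB24 (0.978) and PLEKHN1 (0.972), OSMR most like TRIM66 (0.992), ZBED6 (0.981) and THAP9-AS1 (0.978), and LIFR most like MAP1A (0.996), DIRAS1 (0.991) and MAPRE2 (0.991). STAT3 was most like LMNTD2 (0.996), NR5A2 (0.988) and SRD5A3 (0.984), and SOCS3 most like ELFN2 (0.984), SOX13 (0.983) and SPRY1 (0.983). A high r does not mean a like size of change: GMIP averaged 40.6 CPM in carboplatin_72h and 16.4 CPM in parental_DMSO, and MAP1A averaged 21.9 CPM in DTP_TSA and 0.532 CPM in DTP. DIRAS1 averaged 5.34 CPM in DTP_TSA and at most 0.587 CPM in any other group, so it met the limit of 1 CPM through DTP_TSA. The best of 9096 genes over 6 points can reach a high r easily. No member was among the 3 most similar genes of another.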

How the data were processed

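RNA of PC9 cells was sequenced in 18 libraries of 6 groups, taken from the sample titles. Per the labels' protocols, RNA was DNase-treated and polyA-selected, with ERCC spike-ins dosed by cell number. The authors deposited expected counts per gene, estimated with Salmon per the submitters' processing notes (no version given) and not scaled between libraries. The sources used here give neither the genome build nor the use of strand. The gene table and the spike-in table each hold 3 more columns, left out because their names match none of the samples.

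Gene identifiers were matched to symbols for 27814 of 30727 genes; the rest took 0.247% of gene reads. Expected counts were rounded, filtered with edgeR 4.0.16 (filterByExpr) to 17641 genes, scaled by TMM and fitted in R 4.3.3 with a term per group (limma 3.58.1, 12 residual degrees of freedom, biological coefficient of variation 0.136). The quasi-likelihood F-test gave 7 contrasts, with Benjamini-Hochberg adjustment over all genes and a threshold of 0.05. Exon lengths came from GENCODE 29. All 10 members were named throughout, the 3 genes most like each were taken at a mean of at least 1 CPM and a range of at least 1 on the log2 scale with 0.5 CPM added, and up to 4 genes of each list were named by smallest p. Some genes that this rule names are not reported here. The members and lists were chosen with earlier results of these data known.

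Alternatives were DESeq2 1.42.0, its size factors, other filters, a replicate block, the groups of a comparison alone, spike-in scaling without DTP_TSA a, and each library left out. On simulated data with known changes the test was checked as well. Figures used matplotlib 3.10.9 in Python 3.11.15.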

Additional observations from a re-analysis of the deposited data

Results flagged for a closer look

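For 9 of the 10 genes the effect of TSA differed between persister and parental cells by the edgeR test of the difference itself (log2 effect in DTP less that in parental cells, 3 libraries per group). The differences were -2.02 (adjusted p = 0.00112) for CLCF1, -1.88 (adjusted p = 3.58e-06) for IL6 and -0.45 (adjusted p = 0.00368) for LIF. They were 2.23 (adjusted p = 1.36e-05) for IL6R, 1.58 (adjusted p = 6.30e-07) for IL11, 1.20 (adjusted p = 6.05e-04) for LIFR, 0.71 (adjusted p = 0.00235) for IL6ST, 0.53 (adjusted p = 0.00128) for SOCS3 and 0.51 (adjusted p = 0.00237) for OSMR. Spike-in scaling ended the calls of IL6ST, LIF and OSMR, at 0.78, -0.41 and 0.66 (adjusted p = 0.153, 0.358 and 0.164).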

How the results depend on the processing

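Over 560 values of single genes under settings other than leaving out 1 library, 517 kept direction and side of the threshold, 23 passed anew, 12 no longer passed and 8 turned sign. Turned under spike-in scaling were LIFR (-0.27) and OSMR (-0.0675) in erlotinib_24h and IL6ST (0.51), LIF (0.63) and SOCS3 (0.41) in carboplatin_72h; OSMR in carboplatin_72h turned without a filter (-0.0113), LIF there with a filter of 1 CPM (0.00879), and STAT3 in parental_TSA without both TSA replicates a (0.0674). With 1 library left out, 1205 of 1260 values kept their call; values ran from -0.0564 to 0.0104 for LIF and from -0.0142 to 0.0572 for OSMR in carboplatin_72h, and from -0.174 to 0.0605 for STAT3 in parental_TSA. In carboplatin_72h STAT3 lost its call in 15 of 18 such fits, LIFR in 9, CLCF1 in 5 and SOCS3 in 1, and the count of members that changed ran from 4 to 8, against 7. For the difference in TSA effects, spike-in scaling left 2717 genes, against 6750. The replicate block gave 6 members changed in DTP, against 7, as CLCF1 no longer passed (adjusted p = 0.0632), and changed no other count of members. Same-letter deviations from the group means correlated at -0.20 to 0.29, and 6 of 18 libraries correlated best with their own letter. Weak correlations of this kind cannot decide whether a letter marks a shared culture or day, which the labels do not say. The cause of these shifts was not tested. CLCF1 in DTP_TSA and IL6R in DTP and erlotinib_24h rest on few reads per library, which limits their precision.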
